A study of Macaca mulatta with 136 samples.

Results

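The receptors for GABA, glycine and glutamate, the fast transmitters of the retina, were examined in retina and RPE/choroid of adult rhesus macaques. Genes were taken by symbol: every row named for a GABA-A, GABA rho, glycine, AMPA, kainate, delta, NMDA or metabotropic glutamate receptor subunit. This gave 47 of the 19422 genes in the data, which were 14 GABA-A subunits, 3 GABA rho subunits, 5 glycine receptor subunits, 4 AMPA subunits, 4 kainate subunits, 1 delta receptor, 7 NMDA subunits and 8 metabotropic glutamate receptors. The last of the 47, GRID2IP, matches by its name but encodes a protein that binds a delta receptor and is no receptor itself. GABRB1, GABRQ and GRIK5 were not analysed here.

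Glutamate is released by photoreceptors, bipolar cells and ganglion cells. AMPA, kainate and NMDA receptors are ion channels built from several subunits that it opens, whereas the metabotropic receptors act through G proteins, and GRM6 is the receptor by which ON bipolar cells read photoreceptor release. GABA and glycine are the transmitters of amacrine cells, and GABA also of horizontal cells; they open chloride channels of the GABA-A, rho and glycine receptor families and so inhibit bipolar, amacrine and ganglion cells. RPE and choroid hold no retinal synapses, although vessels, nerve fibres and glia run through the choroid.

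The tissue came from postmortem eyes of 2 animals for which the sources used here name no treatment, labelled RM03 and RM04, with the right (OD) and the left (OS) eye of each. Punches 2 mm wide, taken at the fovea/macula, perimacula, nasal side and periphery, were split into neural retina and RPE/choroid, which gave 4 eyes in each of 8 groups and 32 RNA-seq libraries of 42448903 to 78574055 estimated counts. Strain was not given in the sources used here. Fellow eyes share an animal, and the animal was a covariate in the tests unless stated. The p-values below therefore measure the spread left within these 2 animals and not that between many animals. Values of the 4 eyes are always given in the order RM03 OD, RM03 OS, RM04 OD and RM04 OS, as CPM, counts scaled to the TMM-normalized size of the library, and means are followed by the SD with n = 4 eyes. CPM are not divided by gene length, so levels are compared between samples of a gene and not between genes. The periphery libraries were sequenced on a flow cell of their own, and location and flow cell cannot be told apart there, whereas the other 3 locations shared flow cells.

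The punches carried the markers of their tissue. The summed CPM of 7 RPE markers lay between 147 and 1155 in retina and between 10041 and 24833 in RPE/choroid. Within retina that sum rose outward, from 147 to 229 at the fovea to 594 to 1155 at the periphery. The nasal punch had 247 to 441. In retina, the sum of 10 ganglion cell markers fell from 9356 to 11246 at the fovea to 514 to 1117 at the periphery, and that of 5 horizontal cell markers from 511 to 654 to 210 to 284. The sum of 9 rod markers rose over the same distance from 4013 to 4610 to 23891 to 28040, and that of 8 Mueller glia markers from 1628 to 1771 to 4294 to 6173. The same Mueller glia markers summed to 2008 to 4162 CPM in foveal RPE/choroid, so that sum is not particular to retina. No marker of these lists was at 0 in a group of retina libraries. In such tissue pieces, fewer cells of a type and less RNA per cell cannot be told apart, and the part of these shifts in each result below was not tested.

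In retina, 44 of the 47 genes passed the filter on low counts, the others being GABRA4, GABRP and GRIN3B. Between fovea and periphery, 28 of the 44 were differentially expressed by edgeR's quasi-likelihood test at a Benjamini-Hochberg adjusted p under 0.05. Of all 15380 genes tested, 67.0% were called in the same comparison, so that the share of receptor genes called, 63.6%, was near that of genes at large. The direction was uneven, with 21 receptor genes higher at the fovea, where 31% of all genes were called, and 7 higher at the periphery, where 36% were. The median log2 fold change, fovea minus periphery, was 0.53 over the 44 genes and -0.06 over all genes tested. By family, all 4 AMPA and all 4 kainate subunits were called, 5 of 6 NMDA subunits, 5 of 8 metabotropic receptors, 3 of 5 glycine receptor subunits, 5 of 12 GABA-A subunits and 1 of 3 rho subunits. None of the 28 called genes changed sign with RLE normalization or with DESeq2.

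**Figure D1:**
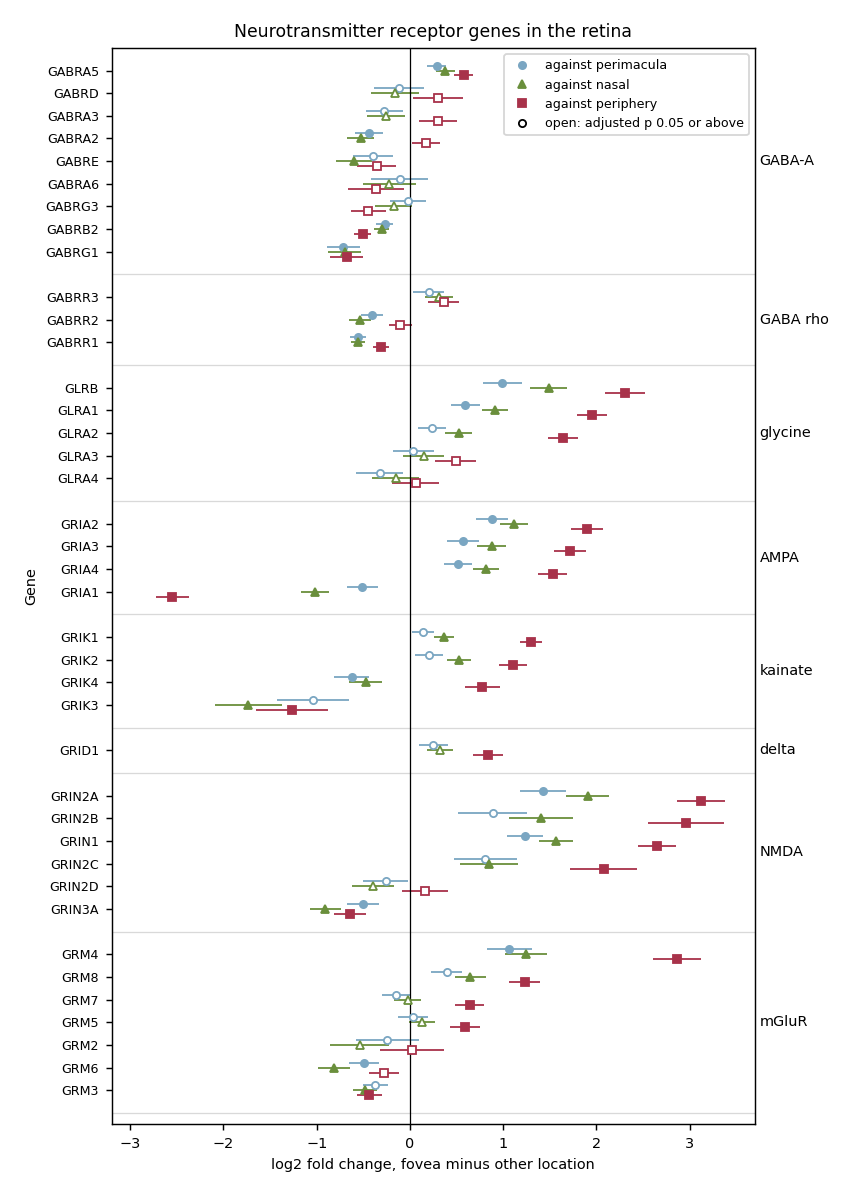
Log2 fold change ± SE in retina (x axis) of 39 receptor genes grouped by family (y axis), at the fovea against the periphery (squares), perimacula (circles) and nasal punch (triangles); filled symbols have an adjusted p under 0.05. GRIN2A lies farthest to the right at 3.12 and GRIA1 farthest to the left at -2.55, both against the periphery.

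The NMDA receptor subunits held some of the largest differences of the set. GRIN1, the subunit that every NMDA receptor needs, was at 239, 250, 259 and 260 CPM at the fovea and at 45.4, 24.1, 57.7 and 42.0 at the periphery. Its perimacular values were 80.8, 122, 111 and 136, and its nasal values 83.9, 82.6, 91.8 and 92.3. The fovea thus stood above each of the other locations without overlap, the periphery stood below them, and the perimacula and the nasal location overlapped. Between fovea and periphery, GRIN1 had a log2 fold change of 2.65 ± 0.20 (SE, adjusted p = 4.56e-07), and against the nasal location, within shared flow cells, one of 1.57 ± 0.18 (adjusted p = 6.35e-06). GRIN2A, a subunit that binds glutamate, fell from 20.8, 16.3, 18.5 and 18.9 CPM at the fovea to 2.31, 1.30, 3.19 and 2.32 at the periphery, with a log2 fold change of 3.12 ± 0.26 (adjusted p = 8.25e-07). Against the nasal location it was 1.90 ± 0.23 (adjusted p = 6.83e-06). GRIN2B was low but followed the same order, at 2.49 ± 0.55 CPM at the fovea and 0.325 ± 0.183 at the periphery, with a log2 fold change of 2.96 ± 0.41 (adjusted p = 4.52e-05). GRIN2C was higher at the fovea by 2.08 ± 0.36 (adjusted p = 0.000264), and GRIN2D was not called, with a difference of 0.16 ± 0.24 (adjusted p = 0.574).

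GRIN3A, an NMDA subunit that binds glycine and lowers the calcium flow of the receptor, went the other way. It was at 8.58, 6.44, 11.5 and 10.2 CPM at the fovea, at 14.6, 11.6, 20.6 and 25.4 in the nasal punch and at 15.1, 9.78, 20.7 and 13.7 at the periphery. Fovea and periphery overlapped, while the highest foveal value, 11.5, lay just below the lowest nasal value, 11.6. The RM04 eyes were above the RM03 eyes at the fovea, the perimacula and the nasal location. Each of the 4 eyes was lower at its own fovea than at its periphery. The log2 fold change was -0.64 ± 0.17 between fovea and periphery (adjusted p = 0.0056), and -0.58 with an adjusted p of 0.0517 without the RM04 OD eye. Against the nasal location it was -0.91 ± 0.17 (adjusted p = 0.000387). As a share of the estimated counts of all 7 NMDA subunits, GRIN3A took 3.09% ± 0.66 at the fovea, 9.50% ± 2.36 at the perimacula, 14.5% ± 3.34 in the nasal punch and 23.1% ± 2.23 at the periphery. GRIN1 took 85.2% ± 1.29 of the NMDA counts at the fovea and 64.9% ± 1.29 at the periphery. These shares did not overlap between fovea and periphery for either subunit, and since counts grow with transcript length they compare locations and not subunits.

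**Figure D2:**
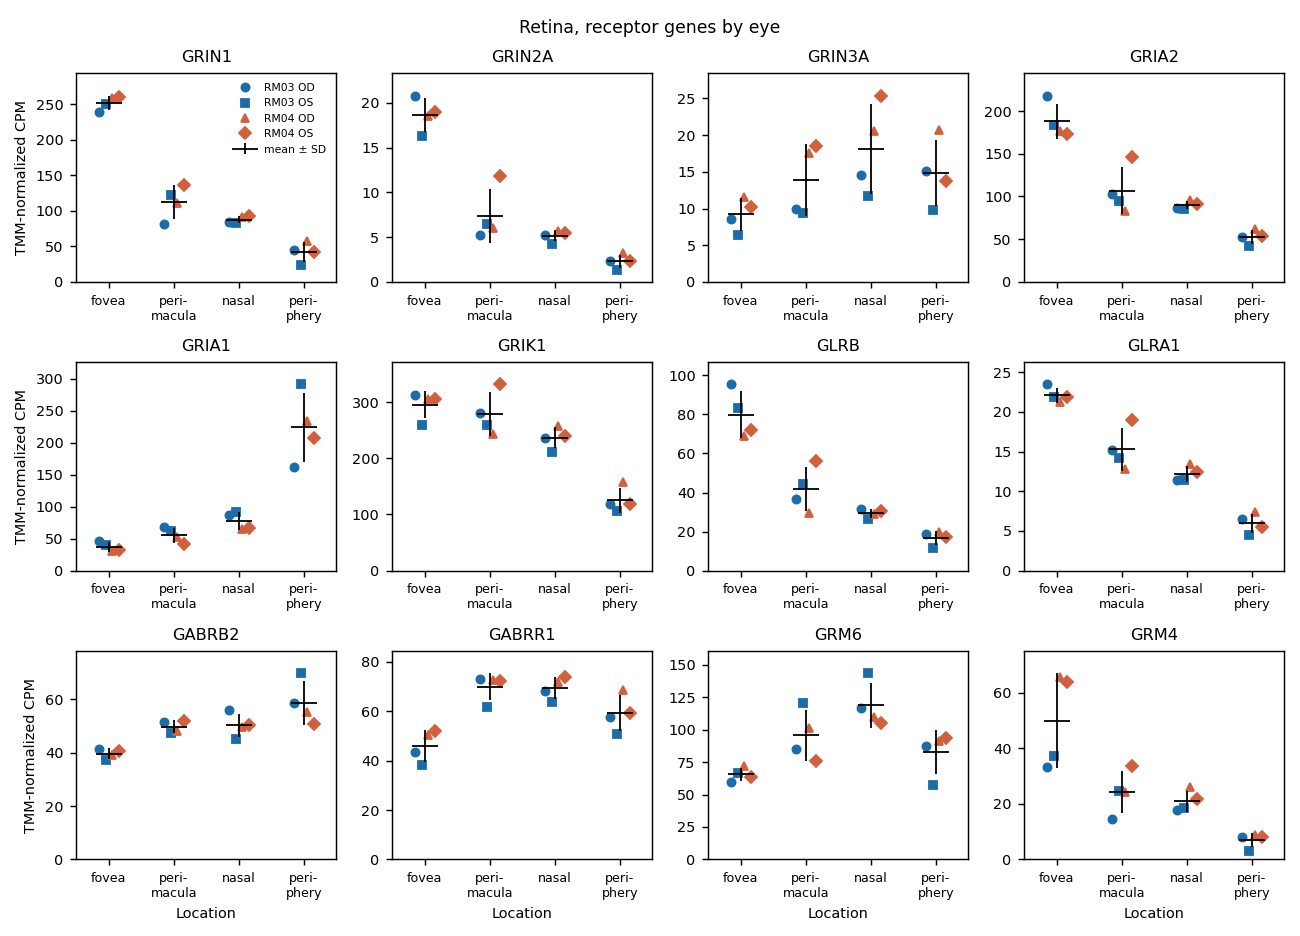
TMM-normalized CPM (y axis) of 12 receptor genes in retina by location (x axis), with a symbol for each of the 4 eyes, blue for RM03 and orange for RM04, and a bar with whiskers for the mean ± SD. Of the 12 genes, 7 fall from fovea to periphery, while GRIA1 rises from a mean of 37.6 to 224 CPM and GRIN3A, GABRB2, GABRR1 and GRM6 have their lowest mean at the fovea.

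Among the AMPA subunits, GRIA1 stood against GRIA2, GRIA3 and GRIA4. GRIA2, the subunit that makes AMPA receptors nearly impermeable to calcium, was at 218, 184, 177 and 174 CPM at the fovea, at 86.5, 85.0, 95.4 and 91.6 in the nasal punch and at 53.0, 42.2, 61.8 and 53.9 at the periphery. Each step was free of overlap, and the log2 fold change between fovea and periphery was 1.90 ± 0.17 (adjusted p = 1.64e-06). GRIA3 and GRIA4 were higher at the fovea by 1.72 ± 0.17 and 1.53 ± 0.16, with adjusted p of 3.74e-06 and 3.97e-06. GRIA1 was at 46.8, 40.9, 30.9 and 31.6 CPM at the fovea, at 67.6, 61.3, 52.3 and 41.0 at the perimacula, at 86.8, 92.5, 65.7 and 67.0 in the nasal punch and at 163, 291, 233 and 208 at the periphery. All 4 periphery libraries were above all 12 others, and the neighbouring locations among the other 3 overlapped. GRIA1 had a log2 fold change of -2.55 ± 0.18 between fovea and periphery (adjusted p = 2.43e-07) and -1.02 ± 0.15 between fovea and nasal location (adjusted p = 5.14e-05). Between fovea and perimacula it was -0.51 ± 0.17 (adjusted p = 0.0346), which was 0.054 with the eye as a block and between 0.0621 and 0.153 without the RM03 OS, RM04 OD or RM04 OS eye.

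The makeup of the AMPA counts was therefore different at each end of the retina. GRIA1 took 9.21% ± 1.10 of the counts of the 4 AMPA subunits at the fovea, 19.6% ± 5.36 at the perimacula, 28.7% ± 4.25 in the nasal punch and 65.5% ± 7.47 at the periphery. GRIA2 took 46.4% ± 0.27, 36.2% ± 3.46, 33.1% ± 2.58 and 15.9% ± 3.43 at the same locations. The lowest GRIA1 share at the periphery, 58%, was in the RM03 OD eye, and the highest at the fovea was 10.3%.

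**Figure D3:**
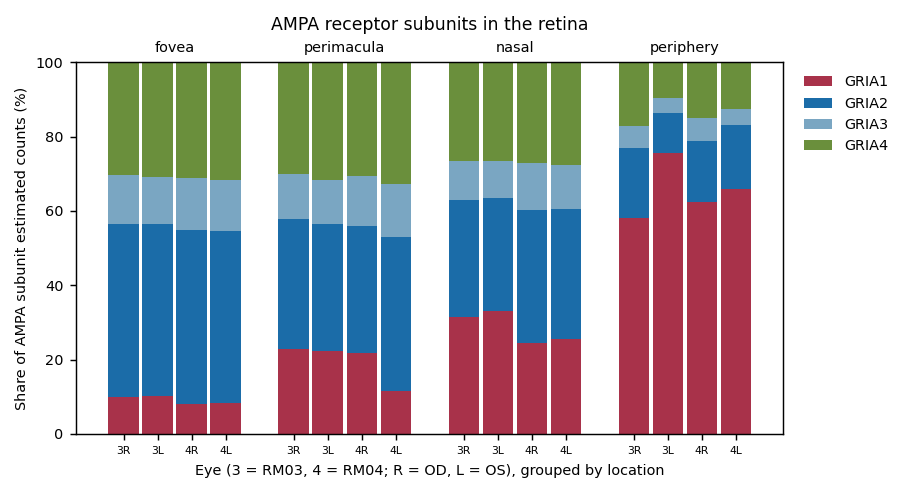
Share of the estimated counts of the 4 AMPA subunits (y axis, %) in each retina library, with a stacked bar for each eye (x axis) grouped by location. The GRIA1 segment grows from 8.15 to 10.3% at the fovea to 58 to 75.5% at the periphery in the 4 eyes.

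Of the kainate subunits, GRIK1 is known for its place in OFF bipolar cells. It was at 312, 260, 306 and 305 CPM at the fovea and at 119, 106, 157 and 119 at the periphery, with no overlap, and its log2 fold change was 1.30 ± 0.12 (adjusted p = 1.92e-06). Most of that difference lay beyond the perimacula, since GRIK1 differed between fovea and perimacula by 0.14 ± 0.12 (adjusted p = 0.397) and between perimacula and periphery by 1.16 ± 0.12 (adjusted p = 1.79e-05). GRIK2 was higher at the fovea than at the periphery by 1.10 ± 0.15 (adjusted p = 3.68e-05). GRIK4, a subunit that forms channels only with GRIK1 to GRIK3, had a peak away from both ends, at 4.12 ± 1.17 CPM at the fovea, 6.65 ± 2.13 at the perimacula, 5.75 ± 0.79 in the nasal punch and 2.42 ± 0.54 at the periphery. It was lower at the fovea than at the perimacula by 0.63 ± 0.19 (adjusted p = 0.0214), and the fovea was above the periphery by 0.77 ± 0.19 (adjusted p = 0.00324).

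GRIK3 was low at the fovea, at 1.76, 1.56, 1.09 and 1.18 CPM, and reached 7.40, 6.09, 3.26 and 3.16 in the nasal punch. The periphery values of 7.64, 1.73, 3.37 and 1.63 were scattered and overlapped the fovea. Its log2 fold change was -1.73 ± 0.36 between fovea and nasal location (adjusted p = 0.000918) and -1.27 ± 0.38 between fovea and periphery (adjusted p = 0.0116). The latter fell to -0.75 (adjusted p = 0.0866) without the RM03 OD eye and to -1.15 (adjusted p = 0.0857) without the RM04 OD eye. GRID1, a delta receptor that acts more as a synaptic organizer than as a glutamate-gated channel, was higher at the fovea than at the periphery by 0.84 ± 0.16 (adjusted p = 0.000557), at 24.8 ± 2.83 against 14.7 ± 3.59 CPM.

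The metabotropic receptors showed 3 different courses. GRM4, a group III receptor that reduces transmitter release, was at 33.3, 37.3, 65.6 and 63.8 CPM at the fovea, at 17.8, 18.4, 26 and 21.9 in the nasal punch and at 8.19, 3.20, 8.63 and 7.92 at the periphery. The fovea was above both of these locations in all eyes, with the RM04 eyes well above the RM03 eyes at the fovea. The log2 fold change was 2.86 ± 0.26 against the periphery (adjusted p = 1.44e-06) and 1.24 ± 0.23 against the nasal location (adjusted p = 0.000339). GRM8, also of group III, was higher at the fovea than at the periphery by 1.23 ± 0.17 (adjusted p = 3.91e-05). GRM7 and GRM5 were higher there too, by 0.64 ± 0.15 and 0.59 ± 0.16, with adjusted p of 0.00307 and 0.00637.

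GRM6 had its lowest mean at the fovea. It was at 59.8, 66.5, 72.2 and 63.7 CPM at the fovea, at 84.9, 121, 101 and 75.8 at the perimacula, at 117, 143, 109 and 105 in the nasal punch and at 87.6, 57.6, 91.6 and 93.4 at the periphery. The fovea lay below the perimacula and the nasal location without overlap, and the periphery overlapped the fovea through the RM03 OS eye. GRM6 was lower at the fovea than in the nasal punch by a log2 of 0.82 ± 0.17 (adjusted p = 0.000973), and differed from the periphery by -0.28 ± 0.16 (adjusted p = 0.153). Against the perimacula the difference was -0.49 ± 0.16 (adjusted p = 0.0351), with an adjusted p of 0.0571 with the eye as a block, 0.123 without the RM03 OD eye and 0.142 without the RM04 OD eye. The sum of 7 ON bipolar markers moved alike, from 549 to 659 CPM at the fovea to 845 to 921 in the nasal punch and 631 to 1056 at the periphery. The same markers summed to 269 to 304 CPM in foveal RPE/choroid, so the sum is not particular to ON bipolar cells. GRM3, a group II receptor, was at 3.92 ± 0.78 CPM at the fovea and 5.66 ± 2.0 at the periphery, with a log2 fold change of -0.44 ± 0.14 (adjusted p = 0.0128). That call was lost without the RM03 OD, RM04 OD or RM04 OS eye, with adjusted p of 0.0648, 0.0951 and 0.0503. GRM2 was not called between fovea and periphery, at 0.02 ± 0.34.

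Of 12 GABA-A subunits tested between fovea and periphery, 3 were higher at the fovea and 2 at the periphery. GABRA5, known for receptors outside synapses, was higher at the fovea than at the periphery by 0.58 ± 0.10 (adjusted p = 0.000342).

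GABRB2, a beta subunit, rose outward. It was at 41.5, 37.2, 39.2 and 40.8 CPM at the fovea and at 58.6, 69.8, 55.3 and 50.8 at the periphery, without overlap, a log2 fold change of -0.51 ± 0.09 (adjusted p = 0.000374). GABRB2 was also lower at the fovea than at the perimacula, by 0.27 ± 0.09 (adjusted p = 0.0375). That adjusted p was 0.0678 with the eye as a block and 0.0661 with no term for the animal. It was 0.118 without the RM03 OD eye and 0.0979 without the RM04 OD eye. GABRG1 was at 2.02 ± 0.58 CPM at the fovea and 3.43 ± 1.42 at the periphery, with overlap and a log2 fold change of -0.68 ± 0.18 (adjusted p = 0.00465, or 0.0946 with no term for the animal). The 7 GABA-A subunits tested and not called had differences between -0.44 and 0.30. GABRA4 was at most 0.162 CPM in any retina library, and GABRP was listed at 0 in 15 of the 16.

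The rho subunits form the GABA-C type of channel found on bipolar cell terminals. GABRR1 was at 43.7, 38.1, 50.4 and 52.2 CPM at the fovea, at 73.2, 61.7, 72.5 and 72.2 at the perimacula, at 68.0, 63.8, 71.8 and 73.8 in the nasal punch and at 57.7, 50.9, 68.8 and 59.2 at the periphery. The fovea was below the perimacula and the nasal location without overlap, and it was lower than the periphery in 4 of 4 eyes. Log2 fold changes were -0.55 ± 0.09 against the perimacula (adjusted p = 0.000645), -0.56 ± 0.08 against the nasal location (adjusted p = 2.26e-05) and -0.31 ± 0.09 against the periphery (adjusted p = 0.00724). GABRR2 was lower at the fovea than at the perimacula and the nasal location by 0.41 ± 0.12 and 0.53 ± 0.12, with adjusted p of 0.0218 and 0.00171, and differed from the periphery by -0.10 ± 0.12 (adjusted p = 0.466). GABRR3 was not called against any location.

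Of the 5 glycine receptor subunits, 3 were higher at the fovea than at the periphery and none was called lower. GLRB, the beta subunit that ties the receptor to its scaffold, was at 95.4, 83.5, 68.8 and 72.0 CPM at the fovea, at 31.8, 26.3, 28.8 and 30.3 in the nasal punch and at 18.8, 11.6, 19.7 and 17 at the periphery. No values overlapped, and the log2 fold change was 2.31 ± 0.22 against the periphery (adjusted p = 2.2e-06) and 1.49 ± 0.19 against the nasal location (adjusted p = 1.64e-05). GLRA1, an alpha subunit that binds glycine, was at 23.5, 21.9, 21.3 and 21.9 CPM at the fovea and at 6.52, 4.48, 7.34 and 5.46 at the periphery. Its log2 fold change was 1.95 ± 0.16 (adjusted p = 7.42e-07), and that of GLRA2 was 1.64 ± 0.16 (adjusted p = 2.19e-06). GLRA3 and GLRA4 were not called, at 0.49 ± 0.22 and 0.06 ± 0.25.

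The other comparisons in retina gave 19 to 28 calls. Between fovea and perimacula, 19 of 44 receptor genes were called, 10 higher at the fovea and 9 at the perimacula, where 35.2% of all genes tested were called, 19% and 16.2% in these directions. This count rested on the animal as a covariate and on all 4 eyes, with 10 calls without the covariate and 7 to 13 with any eye left out. Between fovea and nasal location, 28 of 44 were called, 16 higher at the fovea and 12 in the nasal punch, where 52.2% of 15486 genes tested were, 25.1% and 27.2% in these directions. Between perimacula and periphery, 27 of 44 were called, 24 higher at the perimacula and 3 at the periphery, where 50.3% of all genes were called, 23.4% higher at the perimacula and 26.9% at the periphery. GRIA1 and GABRB2 were among the 3 higher at the periphery.

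Other genes of these pathways moved in several directions in retina between fovea and periphery. GABBR1 and GABBR2, the metabotropic GABA-B receptors, were both higher at the fovea, by 2.76 ± 0.18 and 2.12 ± 0.18 on the log2 scale, with adjusted p of 1.87e-07 and 8.09e-07. Of 7 genes for the synthesis, loading and uptake of GABA and glycine, 1 was higher at the fovea, 5 were not called, and SLC6A11, a GABA transporter, was higher at the periphery by 1.05 ± 0.14. Of 10 genes for glutamate release, uptake and recycling, 3 were higher at the fovea and 5 at the periphery. SLC17A6, the vesicular transporter of ganglion cells, led the first with 4.06 ± 0.32 (adjusted p = 5.23e-07), and SLC1A2 and GLUL, a glutamate transporter and the glial enzyme that makes glutamine, led the second with -1.99 ± 0.14 and -1.27 ± 0.12.

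The partner proteins of the receptors were read against the same background, 31% of all genes higher at the fovea and 36% at the periphery, and no list was tested as a group. Of 21 scaffold and auxiliary proteins of glutamate receptors, 10 were higher at the fovea and 2 at the periphery, and the largest difference was that of CACNG2, an auxiliary subunit that brings AMPA receptors to the synapse, at 3.39 ± 0.22 (adjusted p = 1.73e-07). NETO2, its counterpart for kainate receptors, differed by 3.01 ± 0.23 (adjusted p = 3.98e-07). CNIH3, another AMPA auxiliary, was higher at the periphery by 1.78 ± 0.21 (adjusted p = 1.36e-05), and so was the scaffold DLG4, by 0.45 ± 0.07. Of 5 partners of inhibitory receptors, 4 were higher at the fovea, among them GPHN, the scaffold gephyrin, by 0.46 ± 0.09 (adjusted p = 0.000433). Of 11 genes that act with GRM6 in ON bipolar cells, 4 were higher at the fovea, led by the G protein subunit GNAO1 at 1.28 ± 0.10, and 2 at the periphery, the channel TRPM1 at -0.42 ± 0.09 and LRIT3 at -0.32 ± 0.09.

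In RPE/choroid, 39 of the 47 genes passed the filter between fovea, perimacula and periphery. Between fovea and periphery 14 were called, 8 higher at the fovea and 6 at the periphery, where 44.1% of 15674 genes tested were called, 21.2% and 22.9% in these directions. With any eye left out the count was 7 to 9. Between fovea and perimacula none of the 39 was called by edgeR's quasi-likelihood test, where 0.0447% of all genes were, 0.0191% higher at the fovea and 0.0255% at the perimacula. An unadjusted p under 0.05 was found for 6, and DESeq2 called 2, GABRA3 and GABRA4. Between fovea and nasal location none of 38 was called by edgeR's quasi-likelihood test or by DESeq2, where 0.361% of all genes were (0.209% higher at the fovea and 0.152% in the nasal punch), and 4 had an unadjusted p under 0.05. Between perimacula and periphery 8 were called, 4 in each direction, where 34.9% of all genes were, 17.7% higher at the perimacula and 17.2% at the periphery.

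GABRA3, an alpha subunit of GABA-A receptors, had the largest difference higher at the fovea. It was at 19, 16.9, 10.6 and 10.1 CPM at the fovea, at 6.13, 5.62, 3.36 and 2.36 at the perimacula, at 14.8, 22.5, 5.22 and 1.44 in the nasal punch and at 0.351, 1.40, 0.352 and 0.358 at the periphery. The fovea was above the perimacula and the perimacula above the periphery without overlap, and the nasal values were widely spread, from just above the highest periphery value to above the highest foveal value. The log2 fold change was 4.60 ± 0.36 against the periphery (adjusted p = 6.66e-06) and 1.74 ± 0.31 against the perimacula (adjusted p = 0.108, or 7.02e-06 with DESeq2). The sum of 6 smooth muscle and pericyte markers was 5904 to 9162 CPM at the fovea and 1042 to 2523 at the periphery, with TAGLN listed at 0 in the periphery libraries, and its part in the GABRA3 difference was not tested.

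Other members higher in foveal RPE/choroid were less sharp. GRIA4 was at 69.3, 76.6, 35.5 and 35.3 CPM at the fovea and at 33.2, 35.4, 23.4 and 18 at the periphery. Each eye fell, although the RM04 fovea and the RM03 periphery were alike, and the log2 fold change was 0.92 ± 0.10 (adjusted p = 4.61e-05, or 0.0507 with no term for the animal). GABRE, the epsilon subunit, was at 94, 95, 57.4 and 63.4 CPM at the fovea and at 34, 29.7, 60.2 and 45.2 at the periphery. Both RM03 eyes fell, while of the RM04 eyes 1 fell and 1 rose slightly, and the log2 fold change of 0.85 ± 0.24 (adjusted p = 0.0136) was 0.67 and 0.59 without the RM03 OD or RM03 OS eye, with adjusted p of 0.103 and 0.089.

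GRM4 was higher at the fovea by 1.84 ± 0.36 (adjusted p = 0.00206), at 2.50 ± 0.81 against 0.683 ± 0.220 CPM. GRIN2D was higher by 1.11 ± 0.37 (adjusted p = 0.0308). GABRA4 and GRIN3B were called from very few reads. GABRA4 was at 0.280, 0.938, 1.11 and 0.0705 CPM at the fovea and at 0.157, 0, 0 and 0 at the periphery, with an adjusted p of 0.0193 that was 0.0957 and 0.0719 without the RM04 OD or RM04 OS eye. GRIN3B was at 0.239, 0.386, 0.745 and 0.591 CPM at the fovea and at 0, 0, 0.253 and 0.224 at the periphery. Its adjusted p of 0.0201 was between 0.0535 and 0.0742 without any of the eyes and 0.165 with no term for the animal. A count of 3, the limit that a count of 0 allows in a library for counting error alone, is worth 0.0382 to 0.0707 CPM.

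GRIA1 and GRIA2, in contrast to their opposite course in retina, were high in the same RPE/choroid libraries. GRIA1 was at 3.16, 2.72, 2.67 and 3.57 CPM at the fovea, at 33.6, 2.69, 4.08 and 6.24 at the perimacula, at 3.35, 5.47, 5.13 and 8.40 in the nasal punch and at 31.9, 91.2, 9.29 and 19.5 at the periphery. GRIA2 was at 1.21, 0.620, 2.19 and 0.978 CPM at the fovea, at 25.7, 0.604, 0.807 and 4.69 at the perimacula, at 0.751, 1.14, 0.497 and 0.817 in the nasal punch and at 21.9, 66.3, 3.91 and 4.78 at the periphery. The periphery was above the fovea in 4 of 4 eyes for both, and the RM03 OD perimacula stood with the RM03 periphery.

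The log2 fold change between fovea and periphery was -3.22 ± 0.76 for GRIA1 (adjusted p = 0.00588) and -3.32 ± 1.23 for GRIA2 (adjusted p = 0.0475). For GRIA2 the adjusted p was 0.0821 with the eye as a block and between 0.0947 and 0.158 without the RM03 OD, RM03 OS or RM04 OS eye, with a value of -2.09 without the RM03 OS eye. The sum of 6 markers of Schwann cells, which make the myelin of peripheral nerves, was 420 to 511 CPM at the fovea, 11064, 465, 571 and 2865 at the perimacula and 5808, 16404, 913 and 1486 at the periphery, with none of the 6 at 0 in a group. The sum was therefore highest in the RM03 OD perimacula and the RM03 periphery, where GRIA1 and GRIA2 were highest too. In RM04 GRIA1 did not follow it, being lower in the OS perimacula, with a sum of 2865, than at the periphery, with 913 and 1486. The part of Schwann cells in these differences was not tested. Without the 4 libraries in which that sum was over 2000 CPM, a choice made after the data were seen, the log2 fold change was -2.12 for GRIA1 (adjusted p = 0.00389) and -1.51 for GRIA2 (adjusted p = 0.0377). These libraries were the RM03 OD and RM04 OS perimacula and the RM03 OD and RM03 OS periphery. The periphery was thus left with the RM04 eyes alone, where high myelin markers and the animal cannot be told apart. GRIN2A, at 0.225 ± 0.133 CPM at the fovea and 0.824 ± 0.369 at the periphery, had a log2 fold change of -2.07 ± 0.63 (adjusted p = 0.0206) that was -0.73 (adjusted p = 0.421) without the 4 libraries. It was -1.30 (adjusted p = 0.0519) without the RM03 OS eye, and the adjusted p was 0.0901 and 0.0575 without the RM03 OD or RM04 OS eye and 0.0509 with the compared locations alone. The difference of GABRE became 0.26 (adjusted p = 0.212) without the 4 libraries. Those of GABRR1 and GRIN3B became -1.37 (adjusted p = 0.11) and 1.64 (adjusted p = 0.0856), so that their calls were lost too.

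**Figure D4:**
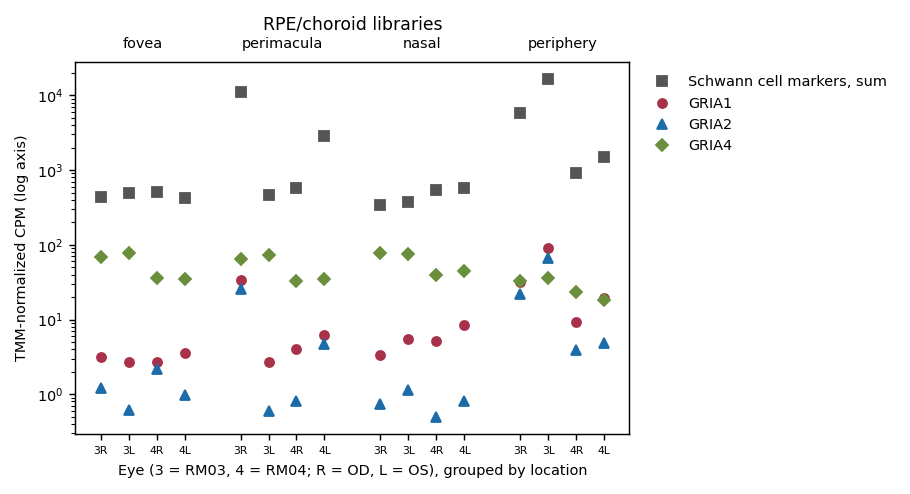
TMM-normalized CPM (y axis, log scale) of GRIA1, GRIA2, GRIA4 and the sum of 6 Schwann cell markers in the 16 RPE/choroid libraries, by eye (x axis) and location. GRIA1, GRIA2 and the marker sum are highest in the RM03 OD perimacula and the RM03 periphery, whereas GRIA4 stays between 18 and 77.6 CPM.

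The other members higher in peripheral RPE/choroid were GRM3, GRM6 and GABRR1. GRM3 was at 0.402, 0.368, 1.35 and 0.259 CPM at the fovea, at 0.564, 0.282, 3.19 and 8.65 in the nasal punch and at 2.09, 2.26, 24.4 and 24.7 at the periphery. The periphery was above the fovea in all eyes, and the RM04 eyes were more than 10 times the RM03 eyes there. The log2 fold change was -3.76 ± 0.66 (adjusted p = 0.00101), and -4.81 (adjusted p = 0.00115) without the 4 libraries of high myelin markers, which left the periphery to RM04.

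GRM6 was at 0.0455, 0.137, 0.236 and 0.358 CPM at the fovea and at 5.94, 0.551, 1.02 and 1.47 at the periphery, with a log2 fold change of -3.67 ± 0.89 (adjusted p = 0.00666), or -2.05 (adjusted p = 0.0125) without the RM03 OD eye. GABRR1 was at 0.179, 0.247, 0.304 and 0.390 CPM at the fovea and at 5.39, 0.170, 1.02 and 0.713 at the periphery. Both genes peaked in the RM03 OD periphery, where the sum of 9 rod markers was 924 CPM, its highest in RPE/choroid, against 51.2 to 539 at the fovea. That sum was 126, 213 and 691 in the RM03 OS, RM04 OD and RM04 OS periphery, an order that GRM6 followed there and GABRR1 did not. Across locations GRM6 did not follow it. The RM04 OD fovea had a rod sum of 539 with GRM6 at 0.236 CPM, and the RM03 OS periphery one of 126 with GRM6 at 0.551. For GABRR1 the log2 fold change was -2.64 ± 0.90 (adjusted p = 0.0349), -0.80 (adjusted p = 0.322) without the RM03 OD eye, and -2.01 (adjusted p = 0.103) with the eye as a block. How much retina was carried into these libraries was not tested.

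Several members differed between the 2 animals in RPE/choroid. GRIN3A was at 18.9, 16.7, 0.673 and 2.87 CPM at the fovea, at 19.8, 23.2, 0.697 and 0.713 at the perimacula and at 11.2, 20.6, 0.307 and 0.424 in the nasal punch. The RM03 eyes were above the RM04 eyes at each of these, while at the periphery the values of 1.58, 0.691, 0.552 and 1.25 overlapped. With the animal as a covariate, the log2 fold change between fovea and periphery was 2.06 ± 0.86 (adjusted p = 0.0748). GRIK3 was higher in RM04, at 15.2, 16, 39 and 34.7 CPM at the fovea, 9.73, 8.80, 38.9 and 41.4 in the nasal punch and 18.7, 29.4, 32.6 and 32.2 at the periphery. GRIA4 was higher in RM03 at each of the 4 locations, and GABRE at each but the periphery. With 2 animals, no test of the difference between them was made.

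**Figure D5:**
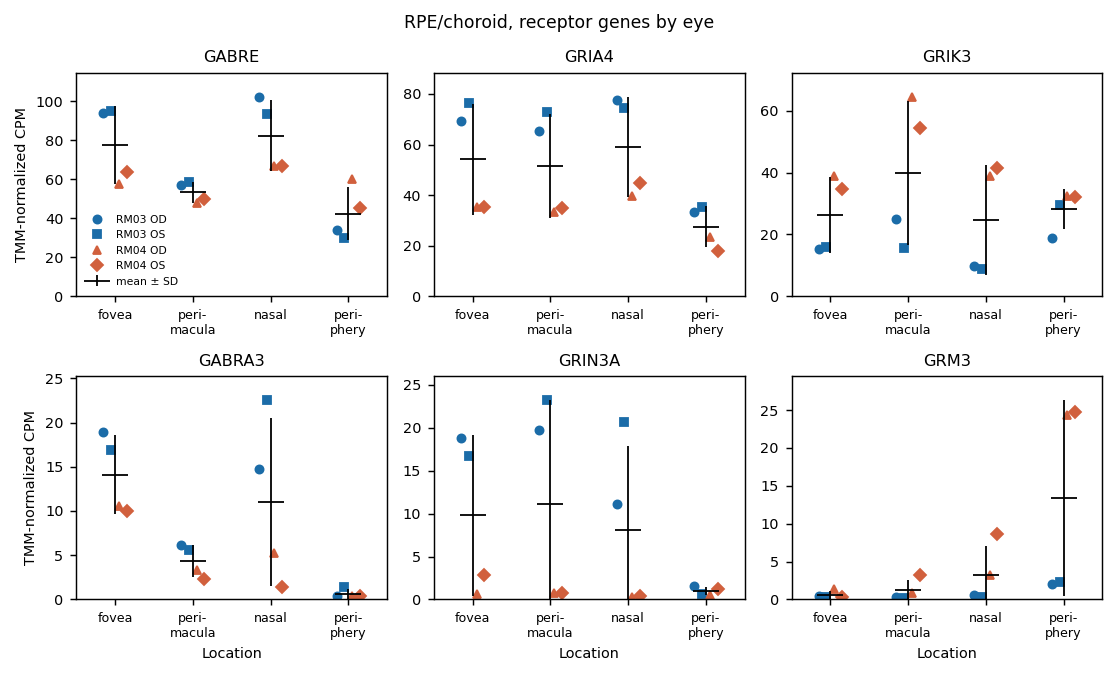
TMM-normalized CPM (y axis) of 6 receptor genes in RPE/choroid by location (x axis), with a symbol for each eye, blue for RM03 and orange for RM04, and a bar with whiskers for the mean ± SD. GRIN3A is above 11 CPM in the RM03 eyes and at most 2.87 in the RM04 eyes at 3 locations, GRIK3 is higher in RM04, and GRM3 reaches 24.7 CPM in the RM04 periphery.

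Between the tissues, most receptor genes were higher in retina. At the fovea, 36 of 45 genes tested were called, 32 higher in retina and 4 in RPE/choroid, where 74.6% of all genes were called, 37.8% and 36.8% in the 2 directions. At the perimacula 40 were called, 34 and 6 in these directions, where 75.6% of all genes were, 37.8% in each. At the periphery 42 were called, 35 and 7, where 74.3% of all genes were, 37.2% and 37.1%. In the nasal punch 39 were called, 33 and 6, where 76.2% of all genes were, 37.6% and 38.6%. The median log2 fold change at the fovea, retina minus RPE/choroid, was 3.98 over the 45 genes and 0.04 over all genes tested. GRM6 differed by 8.47 ± 0.68 (adjusted p = 5.12e-10), GLRA1 by 9.41 ± 0.84 (adjusted p = 2.53e-09) and GRIN1 by 6.27 ± 0.38 (adjusted p = 5.77e-12). GLRA1 was left at a few counts in RPE/choroid, so its direction is clear but the size of its difference is uncertain.

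GABRE, GRIK3 and GABRG3 were higher in RPE/choroid at all 4 locations. GABRE was at 1.19, 0.764, 0.798 and 0.753 CPM in foveal retina against 57.4 to 95 in foveal RPE/choroid, a log2 fold change of -6.42 ± 0.28 (adjusted p = 3.56e-14). No RPE/choroid library was below 29.7 CPM and no retina library above 1.84. GRIK3 differed by -4.13 ± 0.54 at the fovea (adjusted p = 7.02e-07) and by -2.91 ± 0.50 at the periphery (adjusted p = 2.54e-05). GABRG3, a gamma subunit, differed by -2.29 ± 0.32 at the fovea (adjusted p = 2.11e-06) and -0.91 ± 0.31 at the periphery (adjusted p = 0.0119). GRIN2B and GABRA5 were higher in RPE/choroid in the nasal punch, the perimacula and the periphery, by 1.28 to 2.87 and by 0.35 to 0.58, and at the fovea differed by -0.05 ± 0.40 and -0.12 ± 0.12. GRIA4 was higher in retina at the fovea by 1.32 ± 0.23 (adjusted p = 2.77e-05) but reached 77.6 CPM in RPE/choroid, and in the nasal punch the tissues differed by 0.37 ± 0.22 (adjusted p = 0.125). Among the 9 genes not called at the fovea were GABRA3, GABRA5, GRIN2B, GRIN2D, GRIN3A, GRIK2, GRIK4 and GRID2IP.

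Whether the fovea-to-periphery difference was itself unequal in the 2 tissues was tested as an interaction, retina minus RPE/choroid. Of 45 genes, 22 were called, 16 with a more positive difference in retina and 6 in RPE/choroid, where 40.2% of all genes were called, 19% and 21.2% in these directions. GRIA2 had the largest value, 5.72 ± 1.28 (adjusted p = 0.0014), since it was higher at the fovea in retina and at the periphery in RPE/choroid. GRIN2A likewise had 5.09 ± 0.61 (adjusted p = 2.38e-06), although its RPE/choroid values were low and its call there was lost without some eyes. GABRA3 had -4.34 ± 0.52 (adjusted p = 2e-06), with a retina difference of 0.30 ± 0.20 that was not called. For GRIA1, which was higher at the periphery in both tissues, the interaction was 0.79 ± 0.79 (adjusted p = 0.462). GRIN3A had -3.58 ± 1.26 (adjusted p = 0.0286), with adjusted p of 0.175 and 0.158 without the RM03 OD or RM03 OS eye. The count was 12 to 16 with any eye left out.

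Several members lie side by side in the genome. In the RefSeq annotation of the macaque assembly T2T-MMU8v2.0, which is not the build of the data and was used for gene order alone, 46 of the 47 symbols were found and 7 pairs of members were next to each other. GLRB and GRIA2, neighbours of different families, were both higher in foveal than in peripheral retina, by 2.31 and 1.90, while in RPE/choroid their differences were -0.23 ± 0.29 and -3.32 ± 1.23. GABRR1 and GABRR2 are neighbours that both had their lowest mean at the fovea in retina. For the neighbours GABRG3 and GABRA5, the retina differences between fovea and periphery were -0.44 ± 0.19 and 0.58 ± 0.10, of which that of GABRA5 was called.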

How the data were processed

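Per the labels and the study's methods, poly-A RNA was sequenced in paired reads, and the authors quantified each lane against Mmul_8.0.1 transcripts (Salmon 0.13) and took gene values from tximport. The deposited column is called TPM, but its sums per lane ran from 7932259 to 39439054, and the study's methods name length-scaled values from tximport. The deposited values were therefore read as estimated counts (expected counts scaled by transcript length), a reading that no file header states and on which every CPM and share rests. Lane values were added up per library here and rounded. Depth limits low genes, and estimated counts do not tell PCR copies apart, so floors cover counting error alone.

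Counts were tested with edgeR 4.0.16 (quasi-likelihood, TMM, filterByExpr at a minimum count of 10, animal as covariate, Benjamini-Hochberg over all genes tested) under R 4.3.3 with limma 3.58.1. The fovea, perimacula and periphery of a tissue were fitted together, with the nasal libraries added for nasal comparisons and both tissues together for tissue and interaction contrasts. Alternatives were DESeq2 1.42.0, RLE normalization, other filters, the eye as a block, no covariate, other sets of locations and leaving out each eye. The rest was done in Python 3.11.15 (matplotlib 3.10.9, scipy 1.17.1, pandas 2.3.3, numpy 2.4.6).

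Members and gene lists were chosen with earlier results of these data known. Values are given in full for 25 members: in each family the highest in retina and, of those called between fovea and periphery, the 2 with the largest difference in each direction; in RPE/choroid the 3 largest in each direction and the 3 highest. Other members are named with their differences, and some genes, members among them, are counted but not reported singly here. Replicate numbers name the same eye in each group by the labels. Over 1000 genes, the deviations from group means correlated at a mean of 0.599 in retina and 0.447 in RPE/choroid between locations of an eye. Between fellow eyes the means were 0.596 and 0.481, so these values do not tell fellow eyes apart. Transcript lengths and sequences were not used here. Some genes are listed under several identifiers, and reads that related subunits share could be split between them.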

Additional observations from a re-analysis of the deposited data

Results flagged for a closer look

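Of 200 groups of 4 eyes examined for the 25 members described in full, 21 held an eye far from the other 3 by Dixon's criterion at the 95% level, which chance alone gives in about 1 of 20 groups. In retina these were the RM03 OS eye for GABRR1 at the perimacula (61.7 CPM, median of the group 72.4), GRIK1 at the fovea (260, median 306), GRM4 at the periphery (3.20, median 8.06) and GRM6 at the periphery (57.6, median 89.6). The RM03 OD eye stood apart for GABRE at the fovea (1.19, median 0.781), and the RM04 OD eye for GRIN2B at the nasal location (1.16, median 0.909) and GRIN3B at the fovea (0.0353, the others at 0).

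In RPE/choroid, the RM03 OD eye stood apart at the perimacula for GRIA1 (33.6 CPM, median 5.16) and GRIA2 (25.7, median 2.75), and at the periphery for GABRR1 (5.39, median 0.866) and GRM6 (5.94, median 1.24). The RM03 OS eye did so for GABRA3 at the periphery (1.40, median 0.355), and the RM04 OD eye for GRM3 at the fovea (1.35, median 0.385) and GABRG1 at the periphery (2.59, median 0.219). The RM04 OS perimacula held high values of GABRG1 (0.330, median 0.0172) and GABRR1 (0.256, median 0.137). Single libraries with few counts above a median of 0 were found for GABRA4 at the nasal location (0.109) and the periphery (0.157), GABRG1 at the fovea (0.133), and GLRA1 at the nasal location (0.133) and the periphery (0.321).

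The fovea-to-periphery difference was unequal between the tissues, by the interaction term of edgeR's quasi-likelihood test, for 16 of these 25 members. Retina minus RPE/choroid on the log2 scale, it was 5.72 for GRIA2, 5.09 for GRIN2A, 3.65 for GRM3, 3.28 for GRM6, 3.20 for GLRA1, 3.13 for GRIN1, 2.82 for GRIN2B, 2.44 for GLRB, 2.39 for GABRR1 and 2.21 for GRIK1. It was 1.63 for GRIA3 and 1.25 for GRID1. Negative values were those of GRIN3B at -4.81, GABRA3 at -4.34, GRIN3A at -3.58 and GABRE at -1.20. The call was lost without at least 1 of the eyes for GABRE, GABRR1, GLRA1, GRIA3, GRID1, GRIK1, GRIN3A and GRIN3B. Without the RM03 OD eye the value was 0.66 for GABRR1 (adjusted p = 0.281), 0.75 for GRIA3 (0.395), 1.31 for GRIK1 (0.0625), -2.27 for GRIN3B (0.445) and 1.89 for GRM6, which kept its call (0.0121). GRIN3B lost its call without any of the eyes and was -7.85 (adjusted p = 0.0518) without the RM04 OD eye. GABRE was -0.76 (adjusted p = 0.115) without the RM03 OS eye, and GRID1 had adjusted p between 0.0662 and 0.178 without the RM03 OD, RM04 OD or RM04 OS eye. The values for GLRA1, GRIN2A and GRIN3B rest on foveal and peripheral RPE/choroid libraries with under 1.5 CPM.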

How the results depend on the processing

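For members described in full, only calls of the main fit were followed, so that calls gained under another setting do not enter. These were calls of the fovea against each location in retina and against the periphery in RPE/choroid, and of the interaction. Under another setting, 838 of 937 values kept their direction and the call, 98 kept the direction and lost the call, and 1 reversed. That was the interaction of GLRA1, at -1.57 (adjusted p = 0.284) without the RM03 OD eye and at 3.96 without the RM04 OD eye. In retina, fovea against periphery gave 24 to 30 calls under every setting. Fovea against perimacula, with 19 calls, gave 10 with no covariate and 7 to 13 without an eye. In RPE/choroid, fovea against periphery, with 14 calls, gave 9 with 10 counts required in every library and 7 to 9 without an eye. Perimacula against periphery, with 8, gave 5 with that filter, 5 with no covariate and 5 to 8 without an eye. Fovea against perimacula, with 0, gave 2 with DESeq2, 2 with the compared locations alone (GABRA3 and GABRE) and 1 (GABRA3) without the 4 libraries of high myelin markers, a setting added after the data were seen. With 10 counts in every library, the tissue comparisons gave 15 calls at the fovea, 18 at the perimacula, 20 at the periphery and 17 at the nasal location, and the interaction 12, since that filter leaves fewer members tested. The interaction count was 12 to 16 without an eye.

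With the eye as a replicate block, fovea against periphery gave 28 calls in retina and 12 in RPE/choroid, all 12 of them shared with the fit without it, and the interactions of GRIA3 and GRIN3B lost their calls, with adjusted p of 0.0526 and 0.0601. Apart from these and the calls named in the report, it changed no call of a member described in full. Deep libraries still leave GLRA1, GABRA4 and GRIN3B at a few counts in RPE/choroid, where differences below a few counts could not be detected.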

Other observations

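In RPE/choroid, other genes of these pathways were also called between fovea and periphery, where 21.2% of all genes were higher at the fovea and 22.9% at the periphery, 44.1% in all. The counts are a description, and no list was tested as a group. Of 6 genes for the synthesis, loading and uptake of GABA and glycine, 4 were higher at the periphery and 1 at the fovea. SLC6A11, a GABA transporter, differed by -5.08 ± 0.96 on the log2 scale (adjusted p = 0.0016), GAD2 and GAD1, which make GABA, by -2.67 ± 0.56 and -2.23 ± 0.73, and SLC6A9, a glycine transporter, by 1.87 ± 0.44 (adjusted p = 0.00557). GAD1 was at most 2.09 CPM in any RPE/choroid library. The GABA-B receptors GABBR1 and GABBR2 were not called, at -0.03 ± 0.15 and 0.32 ± 0.36.

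Of 10 genes for glutamate release and uptake, 2 were higher at the fovea and 3 at the periphery, a share near that of all genes, with SLC17A8, a vesicular glutamate transporter, at 9.67 ± 1.44 (adjusted p = 0.000358) and the glial transporter SLC1A3 at -1.45 ± 0.29 (adjusted p = 0.00201). Of 19 partners of glutamate receptors, 4 were higher at the fovea, among them GRIP2 at 2.32 ± 0.42 and SHANK2 at 1.89 ± 0.47, and 3 at the periphery. Of 4 partners of inhibitory receptors, 3 were higher at the fovea, and of 11 genes that act with GRM6, 1 was higher at the fovea and 2 at the periphery.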
